A study of Homo sapiens with 4 samples.

Results

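The regions described here are places where TBX3 carrying a triple HA tag was found in both ChIP-seq replicates of a melanoma line, inside introns other than the first and outside annotated repeats. They were found by position alone. A summit, the single base that stands for a peak, was taken from the replicate 1 list when its deposited annotation named an intron from the second onwards and its detailed annotation named no repeat. It was kept when it and a summit of replicate 2 were each other's nearest and lay within 200 bp. This gave 4359 regions, which are 19.2% of the 22702 regions shared by the replicates and 13.4% of the 32479 peaks of replicate 1. Of the 8819 replicate 1 peaks in later introns, 6066 lay outside repeats, and 4359 of these had a partner.

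The study profiled 501mel, an established human melanoma cell line, in a single condition. Chromatin was immunoprecipitated in 2 samples with an anti-HA antibody (12CA5), which sees the tag on TBX3 and not the untagged protein, and 2 samples were input chromatin. No treatment, dose or time is named in the labels, and how the tagged protein was expressed, and at what level, is not given in the sources used here. The input samples were not analysed here, so no background value stands beside a peak, and with a single ChIP condition no test between groups exists. Nothing in the labels says that the replicates were separate cultures.

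TBX3, a T-box transcription factor, is known mainly as a repressor. T-box proteins bind DNA through a domain that recognises a short element with the core AGGTGT. In development TBX3 acts in the heart, limb and mammary gland, and in pigment cells T-box factors have been studied for their effect on pigment genes and on E-cadherin. Introns, above all the long ones of developmental genes, often hold enhancers, which can act on the gene around them or on a neighbour. Melanoma cells inherit the lineage program of the melanocyte, headed by MITF, and switch between pigmented and invasive states.

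A small group of the regions touched an annotated gene start, and for these the sequence could be read from RefSeq promoter sequences (build GRCh38.p14). They do not stand for the other regions, most of which lay far from any start. Of the 4359 regions, 19 had their summit in a promoter window, here the 250 bases before to the 50 bases after a start in that table, and replicate 2 had its summit there too in each case. These 19 summits fell in 20 windows, of which 13 belong to uncharacterised genes with LOC names and 5 to the host gene itself, the gene whose intron holds the summit. The sequences are the 250 bases before the start, on the strand of the gene, for the strongest 2 regions whose summit falls inside them, the only 2 windows with a T-box core, and 1 window with 2 other motifs. Capitals mark the T-box core AGGTGT, the element TGANTCA recognised by AP-1 factors, or the E-box form CATGTG bound by MITF, each searched on both strands. The summit's base is counted from the left end.
HMGA2-AS2, in intron 3 of HMGA2, chr12:65948708-65948957, minus strand, summit at base 156: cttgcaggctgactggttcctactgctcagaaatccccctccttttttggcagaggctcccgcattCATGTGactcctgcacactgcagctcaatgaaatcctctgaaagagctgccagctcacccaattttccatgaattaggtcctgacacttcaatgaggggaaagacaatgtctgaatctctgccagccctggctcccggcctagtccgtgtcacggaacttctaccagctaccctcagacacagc
LOC124906298, in intron 3 of KCNAB1, chr3:156456952-156457201, minus strand, summit at base 232: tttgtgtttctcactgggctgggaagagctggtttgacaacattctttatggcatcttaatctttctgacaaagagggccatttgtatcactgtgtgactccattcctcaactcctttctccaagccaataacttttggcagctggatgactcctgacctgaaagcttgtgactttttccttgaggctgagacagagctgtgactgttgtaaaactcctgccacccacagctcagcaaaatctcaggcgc
LOC124901448, in intron 2 of OSTCP1, chr6:158853338-158853587, plus strand, summit at base 188: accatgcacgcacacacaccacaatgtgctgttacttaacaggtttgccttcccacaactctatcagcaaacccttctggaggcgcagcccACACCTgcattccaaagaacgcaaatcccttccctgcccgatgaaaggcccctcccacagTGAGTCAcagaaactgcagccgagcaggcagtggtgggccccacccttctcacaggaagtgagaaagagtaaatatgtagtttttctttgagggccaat
MEF2C, in intron 2 of MEF2C, chr5:88827193-88827442, minus strand, summit at base 113: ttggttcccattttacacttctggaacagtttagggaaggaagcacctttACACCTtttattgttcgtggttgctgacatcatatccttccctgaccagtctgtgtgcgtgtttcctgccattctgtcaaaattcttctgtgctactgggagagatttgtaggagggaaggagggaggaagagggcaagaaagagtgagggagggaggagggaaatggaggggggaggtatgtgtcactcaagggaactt
IL10, in intron 3 of IL10, chr1:206770604-206770853, minus strand, summit at base 159: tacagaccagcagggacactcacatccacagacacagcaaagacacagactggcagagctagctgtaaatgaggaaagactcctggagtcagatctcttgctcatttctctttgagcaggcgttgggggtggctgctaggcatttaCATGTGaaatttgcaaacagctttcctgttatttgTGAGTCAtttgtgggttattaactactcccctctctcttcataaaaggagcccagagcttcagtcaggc

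These promoter-window regions had deposited scores from 3.91 to 243.9 in replicate 1, with a median score percentile of 73.3 in replicate 1 and 77.1 in replicate 2. The HMGA2-AS2 region, inside a gene for a chromatin protein of the embryo, scored 194.7 in replicate 1 and 278.5 in replicate 2. The KCNAB1 region, inside a gene for a potassium channel subunit, scored 148.6 and 156.3. The OSTCP1 region scored 27.7 and 19.9, and that of MEF2C, a transcription factor of muscle, nerve and neural crest, scored 10.8 and 11.4, so the windows with the T-box core were not those with the highest scores. The IL10 region was among the weakest, at 3.91 and 5.55. The window with the highest scores, 243.9 and 437.9, was that of INPP4B, a phosphoinositide phosphatase, whose summit lay 14 bases after a start in RefSeq.

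Matches to these letters were counted in the full windows of 300 bases. The core AGGTGT, on either strand, was in 2 of the 20 windows (10.0%), against 14.6% of the 384 other windows that held a shared summit and 11.4% of all 35116 windows in the table. The longer form AGGTGTGA, which contains that core, was in 0 of 20, against 2.60% and 0.980%. TGANTCA was in 7 of the 20 (35.0%), against 13.5% and 7.71%, and CATGTG was in 6, against 19.5% and 11.1%. The windows of IL19 and IL10 overlap, share a summit and hold the same matches to both, so these matches are counted in each of the 2 windows. The palindromic E-box CACGTG was in 2 (10.0%), against 18.0% and 7.26%. With 20 windows these shares describe the windows and were not tested, and a match is letters in a window, not a measured site.

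Over all 4359 regions the deposited score had a median of 20.2 in replicate 1, ranged from 2.02 to 706.8 and had its quartiles at 10.8 and 45.1. For replicate 2 these values were 33.2 (median), 2.06 to 773.0 (range) and 16.5 and 77.2 (quartiles). The scale of the score is not stated, so scores were compared within a list only, as percentiles: the percentage of the peaks of a list that a peak equals or exceeds, with equal scores sharing a mean rank. The median percentile was 64.9 in replicate 1 and 73.7 in replicate 2 (SD 6.18, n = 2). That both lie above the middle of their lists follows in part from the pairing, because replicate 1 peaks of the same annotation that lacked a partner had a median percentile of 19.0.

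These values lay close to those of first-intron and intergenic regions outside repeats and below those of promoters. First introns had medians of 65.4 and 74.6, and intergenic regions had 64.9 and 73.7, the same to 3 digits as the later introns. Shared promoter regions had higher medians, of 75.2 and 78.2, and later-intron regions inside repeats had lower ones, of 58.9 and 69.6. Most of the regions outside repeats, 3263 (74.9%, 95% Wilson interval 73.5% to 76.1%), had a higher percentile in replicate 2 than in replicate 1, against 67.0% (66.4% to 67.6%) of all shared regions. The replicate 2 list is longer, with 40494 peaks against 32479, so more of its peaks lack a partner. The higher percentiles in replicate 2 can come from this length and are not read as stronger binding. The intervals here and below cover counting error only, and regions of one pair of libraries are not replicates of a condition.

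The scores of the replicates ranked the regions alike, with a Spearman's rho of 0.871 across the 4359 regions, given as a description because all points share the same pair of libraries. It was 0.856 in first introns, 0.867 in intergenic regions, 0.889 at promoters and 0.854 in later-intron repeats. The highest 10% of the replicate 1 list held 670 of the regions (15.4%) and that of replicate 2 held 945 (21.7%), and 638 regions (14.6%) were in the highest 10% of both. The lowest 10% of the lists held 99 and 87. Like the median percentiles, these shares follow in part from the pairing, because peaks of low score lacked a partner more often. The same shares over all shared regions were not computed, so nothing particular to later introns can be read from them. The paired summits were a median of 29 bp apart, 70.9% were within 50 bp and 46 fell on the same base. The deposited annotation placed 99.1% of the partner summits in the same intron, and 177 partners (4.06%) touched a repeat.

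**Figure D1:**
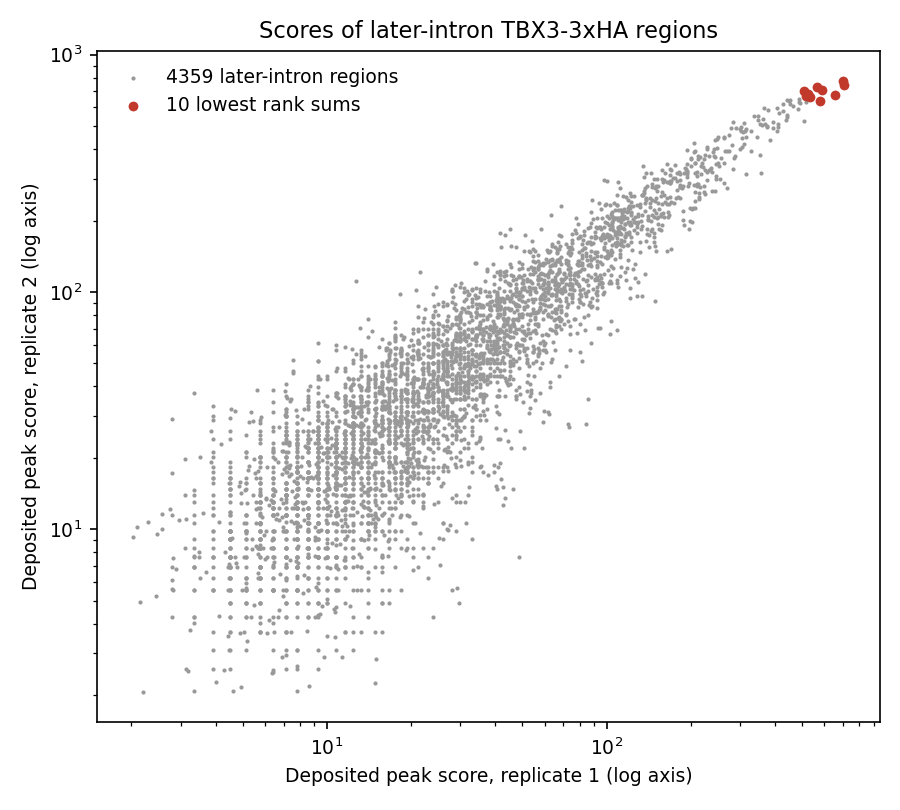
Deposited peak score of each of the 4359 later-intron regions in replicate 1 (horizontal, log axis) and replicate 2 (vertical, log axis). Each grey point is a region and the red points are the 10 with the lowest sum of score ranks. The points run along a band that narrows towards high scores, and the red points all lie above 500 in replicate 1.

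The share of replicate 1 peaks of this annotation that recurred in replicate 2 was 71.9% (70.7% to 73.0%), against 69.9% for all peaks of replicate 1. Intergenic peaks outside repeats recurred at 71.4% (70.4% to 72.4%), and their interval overlaps that of the later introns. First introns recurred at 74.6% (72.9% to 76.2%), promoters at 75.8% (72.6% to 78.7%) and later-intron peaks inside repeats at 65.1% (63.3% to 66.9%). The score moved the share far more than the class did. When later-intron peaks outside repeats were split into 4 equal groups by score, 30.9% (28.6% to 33.2%) of the lowest group, with scores up to 7.12, had a partner, and the next groups had 68.3% and 89.97%. In the highest group, from 32.3 upwards, it was 98.3% (97.5% to 98.8%).

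Pairs on either side of the 200 bp limit had modest scores. Just inside were a region of PPARGC1A, a coactivator of mitochondrial genes and a MITF target in melanoma, with summits at 23892995 and 23892795 on chromosome 4 and scores of 5.76 and 13.9, and a region of RALGPS1 with scores of 25.1 and 9.21. Just outside, at 201 bp, were pairs in LPAR3, with scores of 10.0 and 9.86, and in CORO2B, with scores of 9.28 and 9.86. In all, 183 mutually nearest pairs of this class, including those in LPAR3 and CORO2B, had summits over 200 and up to 400 bp apart. They were not counted.

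The 10 strongest regions by rank sum differed in where they lay in their hosts. The lowest sum of ranks belonged to KAT2B, a lysine acetyltransferase that modifies histones. Its summit was base 20081403 of chromosome 3 (hg38) in both replicates, in intron 2 of 17 and 41371 bp from the TSS (transcription start site) of the gene, and it ranked 4 in each list with scores of 700.9 and 773.0. KAT2B held 2 further regions, and the middle score of the 3 was only 14.1 in replicate 1 and 26.98 in replicate 2. The strongest site thus stood far above the other regions of the gene in both lists.

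The next was in intron 2 of 5 of ADAMTS9-AS2, a long non-coding RNA antisense to a protease gene, with summits at 64805323 and 64805331 on chromosome 3 and scores of 706.8 and 746.9. It was the only such region of that gene. LINC01344, a non-coding RNA on chromosome 1, had its strongest summit at 182301845 with scores of 590.1 and 709.0, and all 4 of its regions were in the highest 10% of both lists. LINC01140, also non-coding, had scores of 577.1 and 640.5 at 87155316 on chromosome 1. Non-coding transcripts thus held 3 of the 10 regions with the lowest rank sums, while over all 4359 regions they held 629 (14.4%).

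The others of these 10 were in protein-coding genes, and several lay near the far end of the host. UQCC1, an assembly factor of mitochondrial complex III, had a summit at 35305863 on chromosome 20 in the last of its 9 introns, with scores of 652.7 and 677.4, and the nearest TSS was that of FAM83C at 13441 bp. VTI1A, a SNARE protein of vesicle fusion, had one at 112776070 on chromosome 10 in the last of 7 introns (567.2 and 728.9). SEMA3C, a secreted guidance factor, had one at 80748641 on chromosome 7 in the last of 17 introns (514.2 and 673.3), with CD36 the gene of the nearest start at 101988 bp. These 3 summits lay at 97.0%, 80.6% and 96.6% of the host's span, counted from its start.

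The remaining ones were in ARNT2, a bHLH-PAS transcription factor, at 80474619 on chromosome 15 in intron 4 of 18 (523.6 and 681.2), in ACYP2, an acylphosphatase, at 54044225 on chromosome 2 (534.9 and 663.4), and in WWTR1 at 149576222 on chromosome 3 (507.1 and 701.1). WWTR1 encodes TAZ, the coactivator through which the Hippo pathway acts on TEAD transcription factors. In each of the 10 the summits of the replicates were at most 23 bp apart. The gap to the other regions was not sharp, as the plot of scores by replicate shows a continuous band below them.

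The regions were spread over the length of their genes. The host transcript had a median of 13 introns and the region lay in a median intron number of 4. Intron 2 held 1194 regions (27.4%), intron 3 held 705 (16.2%), introns 4 to 6 held 1020 (23.4%), introns 7 to 12 held 795 (18.2%) and introns from 13 onwards held 645 (14.8%). The last intron of the transcript held 566 (12.98%), and the highest intron number was 95. The intron number depends on the transcript that the annotation program chose, so the same base can carry another number in another isoform.

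Neither recurrence nor score followed the intron number closely. The share of replicate 1 peaks with a partner was 70.7% (68.5% to 72.9%) in intron 2, highest at 74.3% (71.9% to 76.5%) in introns 4 to 6 and lowest at 68.7% (65.7% to 71.6%) from intron 13 onwards. The median percentile went from 66.1 in replicate 1 and 75.2 in replicate 2 for intron 2 to 63.6 and 73.2 for introns from 13 onwards. Of the 4359 regions, 3509 could be placed within the span of their host by its strand. When the span was split into 5 equal parts from the gene's start, the first part held 8.01% of them, the second 17.2%, the third 24.3%, the fourth 26.4% and the last 24.2%. Leaving out intron 1 removes sequence at the start of each host.

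**Figure D2:**
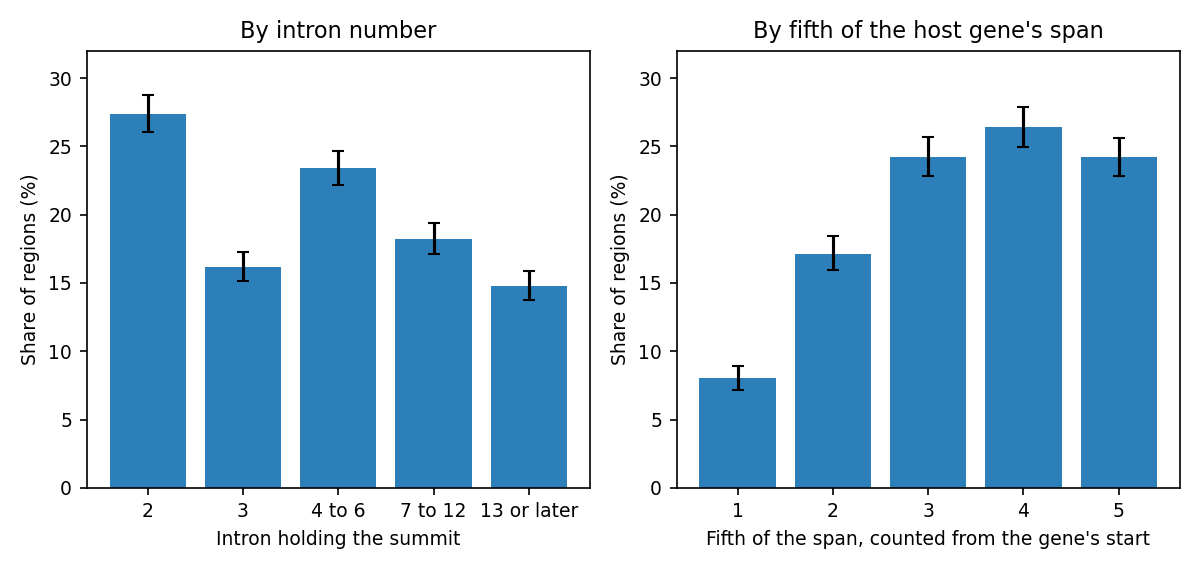
Left, share of the 4359 regions (%) by the number of the intron that holds the summit. Right, share (%) of the 3509 regions that could be placed, by 5 equal parts of the host gene's span from its start. Bars are shares and lines are 95% Wilson intervals. Intron 2 holds the tallest bar on the left, at 27.4%, and the first part of the span the shortest on the right, at 8.01%.

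Most regions were far from any gene start. The median distance to the nearest TSS was 44736 bp, with quartiles of 20215.5 and 92257.5 bp, against 15498 bp for shared first-intron regions and 53553 bp for intergenic ones. Within 1 kb lay 15 regions (0.344%), within 10 kb 520 (11.9%, 11.0% to 12.9%) and within 50 kb 54.3%, while 983 (22.6%) lay beyond 100 kb. In first introns 37.2% lay within 10 kb, and in intergenic sequence 11.6%. By distance to a start, the later introns thus resembled intergenic sequence more than they did first introns. Part of this follows from the classes. Summits at a start are annotated as promoters, whose shared regions lay a median of 145 bp from one, and first introns begin near a start by definition. CpG islands, which mark many promoters, held 29 regions (0.665%).

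The nearest start was often not that of the gene around the summit. For 4342 regions the host and the nearest gene were both named, and in 2000 of them (46.1%, 44.6% to 47.5%) the nearest TSS belonged to another gene. The share was 39.3% (35.2% to 43.6%) for summits up to 10 kb from a TSS and 51.9% (48.8% to 55.1%) for those over 100 kb away. Where the start of that other gene and the span of the host could be placed, the start was inside the host's span in 485 of 1141 cases (42.5%). The scores did not set these regions apart: median percentiles were 65.5 and 73.4 where another gene was nearest and 64.9 and 74.0 where the host was.

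In 237 of the 2342 regions whose nearest start was the host's own (10.1%), the summit lay upstream of that start, because the gene has a start inside its own body. The strongest of these was the ACYP2 region above, 71048 bp upstream of a start of ACYP2. The next were in ALK, a receptor tyrosine kinase of the nervous system (38972 bp upstream, scores 440.2 and 643.7), MYRIP, which links RAB27A on melanosomes and secretory granules to myosin motors (12858 bp, 405.8 and 598.9), and KCNIP3, a calcium sensor (12926 bp, 407.1 and 478.8). These were singled out after their values were seen.

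Among the 15 regions within 1 kb of a start, the highest scores were in YTHDF2, a reader of RNA methylation, at 28737832 on chromosome 1 in intron 3 of 5 (153.0 and 194.3). The closest was in TRAF3IP2, at 156 bp (20.8 and 43.0).

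The regions fell in 2299 host genes. A single region was found in 1447 of them (62.9%), while 160 genes had at least 5 and together held 1127 regions (25.9%), and 20 genes with at least 10 held 264 (6.08%). Of the 20033 protein-coding genes in the RefSeq gene table, 1993 had a region, or 9.95%. The hosts were long genes, whose introns hold more sequence: the median span was 147.2 kb in protein-coding hosts and 24.1 kb in all protein-coding genes. The share of genes with a region was 0.621% below 20 kb, 8.33% from 20 to 100 kb, 32.3% from 100 to 300 kb and 60.2% from 300 kb upwards. A count over a list of genes has to be read beside these shares. Neighbouring regions of a gene were a median of 19.8 kb apart, 18.5% of 2044 such gaps were within 5 kb, and the smallest was 657 bp.

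SEMA5A had the most regions. It encodes a transmembrane semaphorin that guides axons, spans 511.0 kb of chromosome 5, and held 32 regions in 14 introns. Their scores ran from 3.34 to 263.6 in replicate 1, with a median of 15.3, and from 3.68 to 350.1 in replicate 2, with a median of 21.6, so most were weaker than the typical region. The strongest was at 9157230 and 9157239 in intron 11 of 22. Of the 51 replicate 1 peaks in its later introns outside repeats, 62.7% (49.0% to 74.7%) recurred. Shared summits outside repeats, of any annotation, numbered 8.41 per 100 kb inside the gene and 1.40 per 100 kb in the 500 kb on either side. SEMA5A and the hosts that follow were picked for their number of regions, so a density above that of the flanks follows largely from the choice and is given as a description.

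ADCY2, an adenylyl cyclase that makes cAMP, the messenger downstream of MC1R, lies on the same arm of chromosome 5 and came next with 17 regions. Its scores were 4.93 to 101.6 in replicate 1 (median 14.9) and 2.58 to 174.6 in replicate 2 (median 28.0), and 53.1% (36.4% to 69.1%) of its 32 peaks recurred. The stretch from the start of ADCY2 to the end of SEMA5A, bases 7396138 to 9546075, held 51 of the 268 regions of chromosome 5. In this stretch 53.7% (45.3% to 62.0%) of 134 replicate 1 peaks outside repeats had a partner, against 66.6% (63.8% to 69.3%) of the 1108 on the rest of the chromosome. The median percentiles of its regions were 55.4 and 60.9, against 63.6 and 74.4. The stretch around the 2 genes with most regions thus held weaker and less often recurring peaks than the chromosome around it.

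WWTR1 was different: it had both many regions and strong ones. Its 14 regions lay within 207.6 kb, and 14 of its 16 replicate 1 peaks of this class recurred (87.5%, 64.0% to 96.5%). Scores ran from 5.76 to 507.1 in replicate 1, with a median of 61.5, and from 6.22 to 701.1 in replicate 2, with a median of 105.8. Besides the strongest, at 149576222, intron 3 held a second at 149641301 with scores of 451.2 and 618.3, and intron 4 held one at 149554003 with 290.4 and 490.0. In all, 7 of the 14 were in the highest 10% of both lists, more than in any other host, followed by ADAMTS17 and BCAS3 with 5 each. The density was 6.75 per 100 kb inside the gene and 1.10 per 100 kb in the flanks.

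**Figure D3:**
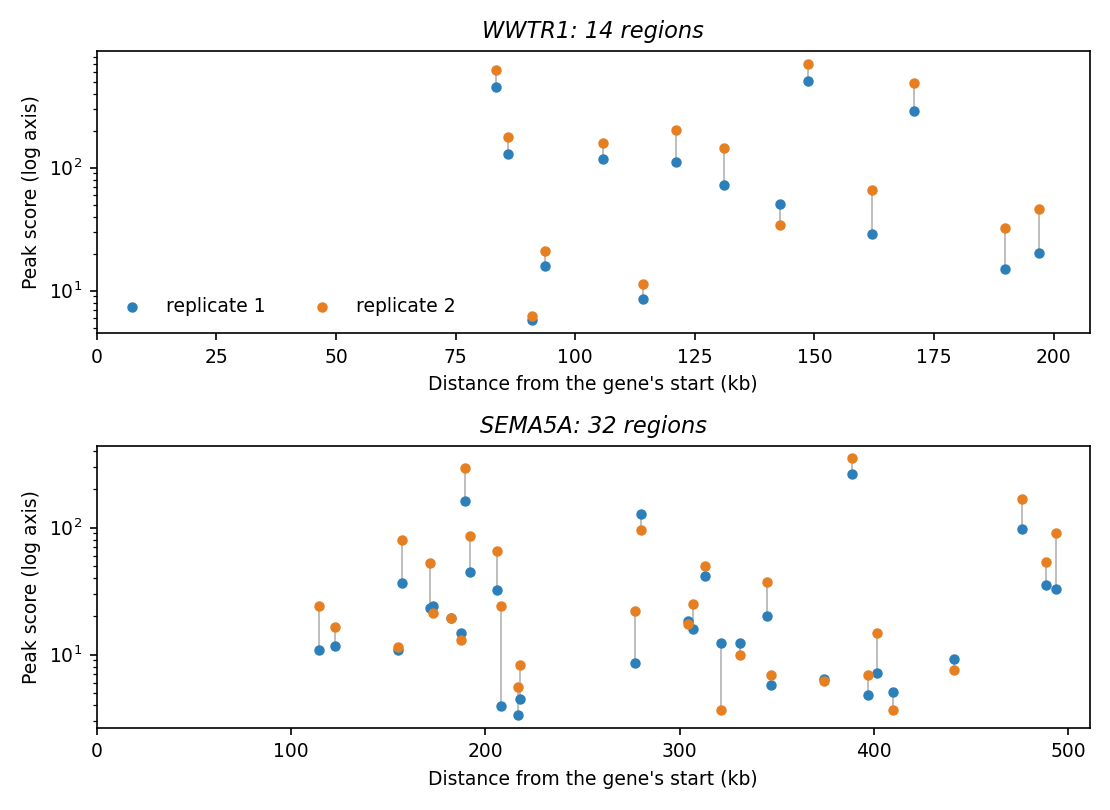
Deposited peak scores (log axis) of the 14 regions of WWTR1 (top) and the 32 of SEMA5A (bottom) by distance from the start of the gene (kb). Each region has a blue point for replicate 1 and an orange point for replicate 2, joined by a line. In WWTR1 the 3 strongest regions lie at least 80 kb from the gene's start, while in SEMA5A weak regions are strewn over most of the gene.

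The other 7 of the 10 hosts with most regions were mixed in kind. MIR3681HG, a microRNA host transcript, BCAS3, and SYN3, a synapsin of nerve endings, had 15 each. AFF3, a nuclear factor of the super elongation complex family, had 14. BCAR3, an adaptor of integrin and receptor signalling, MACROD2, an ADP-ribose hydrolase, and JARID2, a subunit of the Polycomb complex PRC2, had 12 each. The highest replicate 1 score among these 7 was 486.2, in MIR3681HG, and the lowest maximum was 48.0, in JARID2. MACROD2 spans 2058 kb and had 0.826 shared summits per 100 kb, with 0.900 in its flanks.

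**Figure D4:**
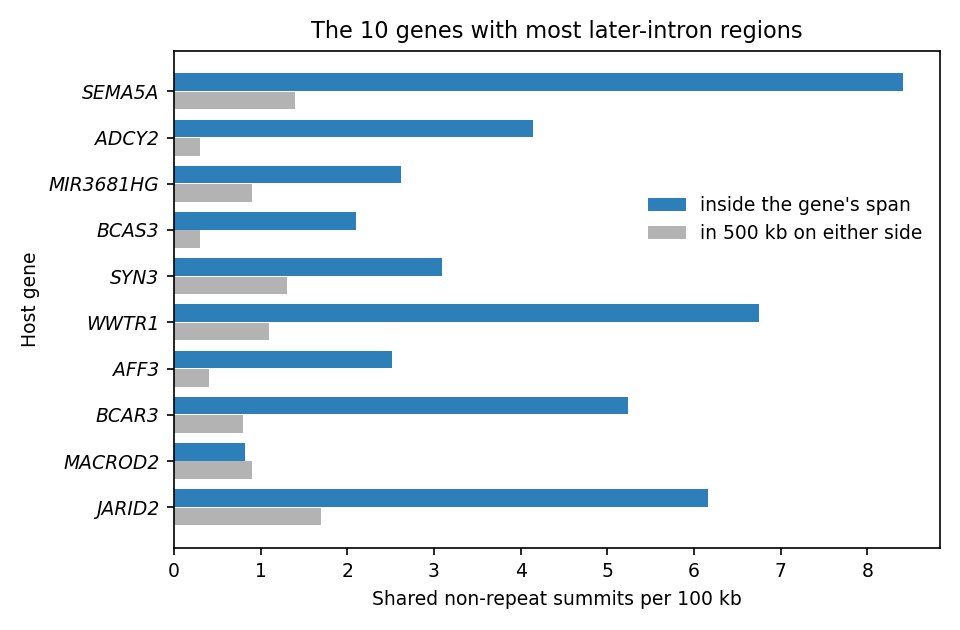
Shared summits outside repeats per 100 kb inside each of the 10 genes with most later-intron regions (blue) and in the 500 kb on either side of it (grey), counting summits of any annotation. The genes were chosen for their number of regions, which favours long blue bars. Inside density runs from 0.826 in MACROD2 to 8.41 in SEMA5A.

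Genes of pigmentation were read beside their lengths. Of 33 pigmentation genes, 11 (33.3%) held a region, 21 regions in all, against 9.95% of protein-coding genes. Their median span was 68.9 kb. Below 20 kb 2 of 7 had one, against 0.621% of all genes of that length, and from 20 to 100 kb 5 of 14, against 8.33%. From 100 to 300 kb it was 3 of 10, against 32.3%, and in the longest class 1 of 2, against 60.2%. The share thus lay above that of all genes in the 2 shorter classes. From 100 to 300 kb it was close to that of all genes, and 2 genes in the longest class are too few to compare. The list was chosen with earlier results of these data known, so it is no independent support. The median percentiles of the 21 regions were 77.4 and 81.7.

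MITF, the master regulator of the melanocyte, had 7 of these regions, in introns numbered 2 of 9 or 2 of 10 by the transcripts chosen. From the 5′ end of the gene, the replicate 1 summits at 69821304, 69840419 and 69855961 on chromosome 3 had scores of 48.5, 18.4 and 17.5 in replicate 1 and of 87.7, 24.98 and 45.3 in replicate 2. Those at 69889218 and 69892896 had 12.4 and 44.0 in replicate 1 and 13.1 and 73.3 in replicate 2. The pair closest to the 3′ end was the strongest: 69926616 had 168.1 and 312.7, and 69929109 had 92.2 and 135.4. This pair lay 9984 and 7491 bp upstream of a start of MITF inside the gene, and 5 of the 7 were upstream of such a start.

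IRF4, a transcription factor needed for pigment gene expression together with MITF, had a region in intron 4 of 8, its summits at 396330 and 396321 on chromosome 6 and scores of 156.6 and 208.6. This intron is known for an enhancer in which a common variant is associated with hair and skin colour. MLANA, a melanosome protein and melanoma antigen, had one in intron 2 of 4 at 5895891 on chromosome 9 (122.5 and 255.0). Both genes are under 20 kb long. OCA2, which supports chloride transport and pH of the melanosome, had a region in intron 22 of 23 at 27849151 on chromosome 15, 250161 bp from its start (63.3 and 211.1). SLC45A2, a melanosome transporter, had a pair of regions in intron 2 of 5, and the stronger, at 33982129 on chromosome 5, scored 63.4 and 96.8.

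The other pigmentation genes with a region were TPCN2, an ion channel of the melanosome, KIT, the receptor of melanoblast growth, GPR143, the melanosome receptor of ocular albinism, MYO5A, the motor that carries melanosomes, PAX3, which acts upstream of MITF, and AP3B1, an adaptor for cargo of the melanosome. Their strongest regions had replicate 1 scores between 13.2 and 43.8. The enzymes TYR, TYRP1 and DCT, together with MC1R and SOX10, were among the 22 without one, which says only that no region was in a later intron outside repeats.

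Transcription factors of the lineage and of the switch between melanoma states had a region in 16 of 29 genes (55.2%, 84 regions), with a median span of 100.2 kb. Below 20 kb 1 of 8 had one (against 0.621% of all genes of that length), from 20 to 100 kb 2 of 6 (8.33%), from 100 to 300 kb 8 of 10 (32.3%) and above 5 of 5 (60.2%). TEAD1, the DNA-binding partner of TAZ, had 11, with the strongest at 12846025 on chromosome 11 (245.4 and 307.9). SOX5, a SOX factor of the neural crest, had 11, with the strongest at 23906527 on chromosome 12 (181.9 and 319.6). TCF7L2, a nuclear effector of Wnt signals, had 3 (strongest 247.0 and 299.8), and ETS1, an effector of MAPK signals, had 7 (183.4 and 314.4).

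MITF was the fifth gene by rank sum in that list, which it shares with PAX3 and the pigmentation list. ZEB2, a zinc finger factor of the differentiated melanocyte state, had 8 regions in 136.0 kb, which put it among the 10 densest hosts with at least 5 regions. SOX6 and NFIA had 9 each, LEF1 6, NFIB 3, RUNX1, ETV1, ETV5 and PAX3 2 each, and ETV4 and TCF4 1 each.

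Axon guidance genes had regions in 24 of 33 (72.7%, 102 regions), the highest share among the 9 lists, at the longest median span, 254.7 kb. From 20 to 100 kb 1 of 4 had one, against 8.33%, from 100 to 300 kb 12 of 15, against 32.3%, and from 300 kb 11 of 14, against 60.2%. Among ligands, SEMA3C had 5 regions, SEMA5A 32 and SLIT3, a ligand of ROBO receptors, 10. Among receptors, PLXNC1, a plexin of melanocytes, had 3, the strongest at 94230659 on chromosome 12 (282.0 and 330.1), and NRP2, a neuropilin, had 3, the strongest at 205699016 on chromosome 2 (213.2 and 251.6). ROBO1 had 9, the strongest at 79081549 on chromosome 3 (147.1 and 298.9).

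Genes of cAMP signalling, the pathway through which MC1R acts, had a region in 15 of 35 (42.9%, 52 regions). Below 20 kb it was 0 of 1 (against 0.621%) and from 20 to 100 kb 2 of 8 (against 8.33%). From 100 to 300 kb it was 5 of 15 (against 32.3%) and from 300 kb 8 of 11 (against 60.2%). After ADCY2 the strongest were in PRKAR1B, a regulatory subunit of protein kinase A (98.6 and 160.5), CREB5, a CREB family factor (84.3 and 146.5), PDE4B, a phosphodiesterase that degrades cAMP (68.9 and 173.1), and ADCY9, a further cyclase (63.1 and 78.2). PDE4B had 8 regions and PDE4D 7, and none of the 15 genes reached the scores of the strongest pigmentation genes in replicate 1.

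**Figure D5:**
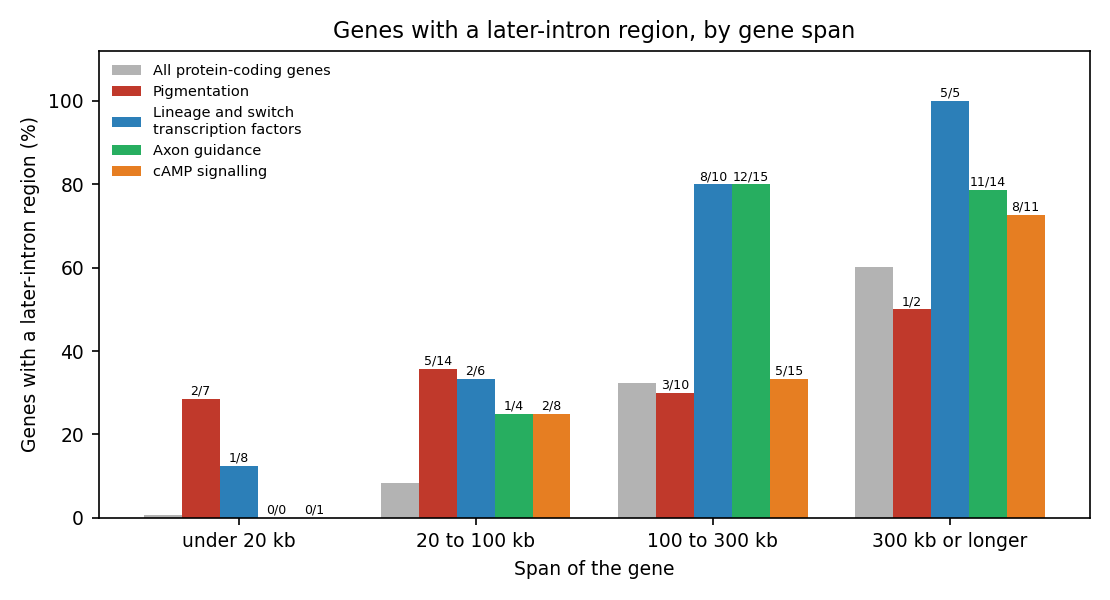
Share of genes (%) with a later-intron region by the span of the gene, for all 20033 protein-coding genes (grey) and for 4 lists of genes (colours), with the number of genes with a region over the number of genes in the list above each bar. The grey bars rise from 0.621% to 60.2%. Pigmentation genes stand above grey in the 2 shorter classes. They stand no higher than grey in the 2 longer ones, which hold only 10 and 2 of these genes.

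Of 29 receptor tyrosine kinase and MAPK genes 9 (31.0%) had a region, against 9.95% of protein-coding genes. By length it was 0 of 6 below 20 kb, 1 of 8 from 20 to 100 kb (against 8.33%), 3 of 9 from 100 to 300 kb (against 32.3%) and 5 of 6 above (against 60.2%). IGF1R, the receptor of insulin-like growth factors, led with 11 regions and scores of up to 183.4 and 295.5. NTRK3 and NTRK2, neurotrophin receptors, followed with 2 regions each (148.4 and 242.9, and 111.3 and 206.0), then MET, the receptor of hepatocyte growth factor, with 3 (103.7 and 214.0). KIT, the last of the 5 by rank sum, scored 34.1 and 59.6.

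Of 30 histone acetyltransferase, deacetylase and chromatin genes 9 had a region, against 9.95% of protein-coding genes. Below 20 kb 0 of 4 had one (against 0.621%) and from 20 to 100 kb 0 of 11 (against 8.33%). From 100 to 300 kb it was 6 of 11 (against 32.3%) and above 3 of 4 (against 60.2%). Below the KAT2B site the scores dropped: HDAC4, a deacetylase, had 5 regions with a strongest of 74.9 and 174.9, SETD2, which trimethylates lysine 36 of histone H3, had 1 (55.5 and 78.5), JARID2 had 12 (48.0 and 87.9) and KDM4C, a demethylase, had 2 (48.5 and 78.5).

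Of 33 Wnt genes 11 (33.3%) had a region, against 9.95% of protein-coding genes. Below 20 kb it was 0 of 4 (against 0.621%) and from 20 to 100 kb 2 of 12 (against 8.33%). From 100 to 300 kb it was 7 of 15 (against 32.3%) and above 2 of 2 (against 60.2%). PRICKLE2, of the planar polarity branch, had 1 (224.4 and 377.9), TCF7L2 is given above, and AXIN1, a scaffold of the complex that degrades beta-catenin, had 2 (203.7 and 226.2). TNIK, a kinase of the TCF complex, had 5 (48.5 and 81.1), and RSPO2, a ligand that enhances Wnt signals, had 1 (38.4 and 86.4).

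Of 26 adhesion genes 9 (34.6%) had a region, against 9.95% of protein-coding genes. Below 20 kb it was 0 of 1 (against 0.621%) and from 20 to 100 kb 1 of 6 (against 8.33%). From 100 to 300 kb it was 2 of 7 (against 32.3%) and above 6 of 12 (against 60.2%). CDH1, which encodes E-cadherin, was the first by rank sum, with 3 regions. Its strongest lay in intron 2 of 14 (chromosome 16, summits 68786840 and 68786844), 44324 bp from the nearest TSS, with scores of 327.4 and 475.3 and ranks of 185 and 171. PTPRM, a receptor phosphatase that binds its like on other cells, had 4 (274.0 and 394.5), CDH13 3 (168.1 and 251.6), CDH4 2 (96.4 and 172.5) and CTNND2, a catenin of nerve cells, 4 (34.1 and 104.1).

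CDH1 was also the only gene with a region among 16 T-box genes and targets known from other work (6.25%, against 9.95% of protein-coding genes). That list is of short genes, with a median span of 17.0 kb. Below 20 kb 0 of 9 had a region, against 0.621% of all genes of that length. From 20 to 100 kb, the class of CDH1, it was 1 of 5 (against 8.33%), and from 100 to 300 kb 0 of 2 (against 32.3%). TBX3 itself, CDKN1A and CDKN2A were among those without one.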

How the data were processed

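TBX3 binding was profiled by ChIP-seq in 2 samples of the 501mel line, with 2 input samples that were not analysed here. Groups and replicate numbers come from the sample titles. Per the file headers, each list holds peak summits of a single sample annotated with HOMER annotatePeaks.pl against hg38, so replicates were not pooled, and each summit is a single base. The peak score of each summit was deposited by the authors, per the file headers. Its scale, the threshold of the peak calling and its control are not given in the sources used here. The submitters' processing notes name FastQC 0.11.7, cutadapt 2.8, Bowtie2 2.3.5, MACS2 2.1.2 and SAMtools 1.9. Read depth is unknown, and the number and scores of peaks can depend on it.

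Summits of the lists were paired as mutual nearest neighbours within 200 bp on a chromosome. The host is the gene of the transcript in the deposited annotation; spans, strands and sequences are those of RefSeq (GRCh38.p14), and the hosts of 4348 of the 4359 regions were matched. Shares carry 95% Wilson intervals, and no test was made over regions. On simulated summits the pairing recovered 100% of planted partners. These were planted inside the limit with all other summits beyond it, so the result checks the code and not the pairing of real summits. Members and gene lists were chosen with earlier results of these data known. Named are the 10 regions of lowest rank sum, the 10 hosts with most regions, up to 5 genes per list by rank sum with values and the others by name or count, and 2 regions on each side of the pairing limit. Promoter windows, regions near or upstream of a start, ADAMTS17 and the hosts in the closing section were named after their values were seen. Alternatives covered the pairing distance, score limits, the replicate used for the annotation, the sequences, repeats, single replicates and the table of starts. Python 3.11.15, pandas 2.3.3, numpy 2.4.6, scipy 1.17.1 and matplotlib 3.10.9 were used.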

Additional observations from a re-analysis of the deposited data

How the results depend on the processing

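Of 75 alternatives over the counts, shares, percentiles and rank correlation, 54 kept the value and 21 moved it. Kept means within 1.5 times for a count, within the 95% interval for a share or the rank correlation, and within 1 SD of the replicates for a percentile. The number of regions was 2853 with both scores at or above the median of their list, 901 with both summits among the 5000 highest, and 7629 with replicate 2 alone and no pairing. With replicate 1 alone and no pairing it was 6066, which counts as kept. The share of peaks with a partner was 50.9% within 50 bp, 65.4% within 100 bp, 75.6% within 500 bp, 87.5% at or above the median, 87.6% among the 5000 highest, 57.5% by the replicate 2 annotation, which is a share of a longer list, and 69.7% with repeats included. The median percentile in replicate 1 was 71.7 within 50 bp, 78.2 at or above the median, 93.7 among the 5000 highest and 52.1 without replicate 2. In replicate 2 it was 83.9, 95.5 and, without replicate 1, 53.6. The rank correlation was 0.888 within 50 bp, 0.855 at or above the median (0.8551) and 0.855 among the 5000 highest (0.8552). Pigmentation genes with a region numbered 5 among the 5000 highest, a setting that itself leaves fewer regions. A tighter pairing limit can only lower the share with a partner, and a wider one can only raise it. Score limits leave out the lower percentiles and so raise the median percentiles. The cause of the other changes was not tested. The share with another gene nearest and the share within 10 kb of a start moved in none of these settings. The share within 10 kb also kept its value with the starts of the RefSeq promoter table, an alternative chosen after seeing the data. The share with another gene nearest was not recomputed with that table. The share with a partner and the rank correlation have no value when a replicate is left out. No paired analysis was possible because there is a single ChIP condition and no result comes from a test. Unknown depth limits every count of peaks.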

Other observations

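The density of shared summits outside repeats was uneven along the genome. In the 2489 bins of 1 Mb that held any, the median was 4, the 99th percentile was 19 and the highest was 50, in the bin from 9 to 10 Mb of chromosome 5, where 34 were later-intron regions, nearly all of them in SEMA5A. The next was the bin from 69 to 70 Mb of chromosome 3, around MITF, with 33 shared summits, of which 16 were later-intron regions. The bin from 149 to 150 Mb of the same chromosome, around WWTR1, had 23, of which 19 were.

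By chromosome, later introns held from 21.5% of the shared summits outside repeats on chromosome 19 to 41.2% on chromosome 17. Among hosts with at least 5 regions the median density was 1.65 regions per 100 kb, and the densest were NBPF14 at 7.74, WWTR1 at 6.75, CDK15 at 6.73, SEMA5A at 6.26 and IGF2BP2 at 6.05. NBPF14 belongs to a family of near-identical copies, so its counts are uncertain, and its median scores of 11.6 and 9.86 were low.

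The distance to a start depends on the table of starts. The INPP4B region, with a summit 14 bases after a RefSeq start, has a deposited distance of 443416 bp. Within 1 kb of a start lay 15 regions by the deposited distance and 54 (1.24%, 0.951% to 1.61%) by the RefSeq table, while within 10 kb the numbers were 520 and 545.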
